A study of Saccharomyces cerevisiae with 2 samples.

Results

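Copper uptake, copper delivery and superoxide dismutase genes of the budding yeast *Saccharomyces cerevisiae*, with the iron uptake genes that depend on copper, are described here across 2 barcode microarrays. The 10 genes are *SOD1*, *SOD2*, *CCS1*, *ATX1*, *CTR1*, *CTR3*, *CCC2*, *MAC1*, *FET3* and *FTR1*, out of 5094 genes probed. The set was chosen by its measured ratios: it was drawn up after *CCS1*, *SOD1* and *CTR1* had been seen to be high on these 2 arrays. The values of these 3 genes are therefore a description and were not tested. Probes were assigned by the platform's gene symbol, each array was centred on its median, and each gene took the mean of its probes on that array.

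Each array compared barcodes from genomic DNA of a query pool, labelled with Cy3, with those of a reference pool, labelled with Cy5. In a genetic interaction mapping (GIM) screen a collection of barcoded strains is crossed with a query deletion, and the abundance of each double mutant is read from its barcode. The query pool held haploid double mutants derived from BY4742/BY4741, obtained by crossing a pool of DAmP strains with the query strain and grown for 18 generations under G418 and nourseothricin. DAmP alleles lower the mRNA of a gene through its 3′ untranslated region. The titles name *PIH1*, a subunit of the R2TP co-chaperone of HSP90, as the query, whereas the descriptions and source names give *RSA1*, an assembly factor of small nucleolar ribonucleoproteins. The reference pool is named only as a reference GIM pool of the same strain background, and the sources used here do not name its query. The 2 arrays form 1 group. The series text calls the experiments independent, but the labels name no separate cultures, so the spread between arrays may be partly technical.

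A ratio is given as log2 of query pool over reference pool. The log base and the direction are not stated in the sources used here. The base was read from the width of the values, which reached 9.40 on array 2. The direction is likely rather than stated, and rests on the genes between *SOD2* and *PIH1*, which would be underrepresented beside a *PIH1* deletion because few recombinants form there. All 20 of those with a value on array 1 were negative (median -1.43), as were 17 of 19 on array 2 (median -1.04). *PIH1* itself goes against this pattern, with 1.002 on array 1 and 1.02 on array 2, and the cause was not tested. With the opposite direction every sign below would turn. Probes name genes only, so a DAmP allele cannot be told from another allele of the gene. Values on both arrays were present for 4196 genes, of which 4048 lay outside the regions around *PIH1* and *RSA1* and were tested. Array 2 had the wider scale, with a median absolute deviation (as an SD) of 0.63 against 0.35 on array 1.

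Copper enters yeast through the plasma membrane transporters Ctr1 and Ctr3, whose genes are switched on by the copper-sensing transcription factor Mac1. Inside the cell, the chaperone Ccs1 hands copper to the cytosolic superoxide dismutase Sod1, and the chaperone Atx1 hands it to Ccc2, a copper-pumping ATPase of the Golgi. Ccc2 loads copper into Fet3, a multicopper oxidase that works with the permease Ftr1 in high-affinity iron uptake. Sod2 is the manganese superoxide dismutase of mitochondria. Cells without Sod1 or Ccs1 need added lysine in air, and *LYS7* is the older name of *CCS1*.

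Of the 10 genes, 9 had probes (18 probes in all), 7 had a value on both arrays, 1 had a value on array 1 only, and 1 had a probe without a value. *CTR3* had no probe. The symbols CTR1 and CCS1 are also older names of *HNM1* and *IRA2*, but the platform lists those genes under their own names, so *CTR1* and *CCS1* were read as the copper genes. The 3 genes that prompted the choice, *CCS1*, *CTR1* and *SOD1*, were high on both arrays and on every probe. By contrast, *FET3*, *CCC2*, *FTR1* and *ATX1* stayed between -0.25 and 0.50 on each array.

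**Figure D1:**
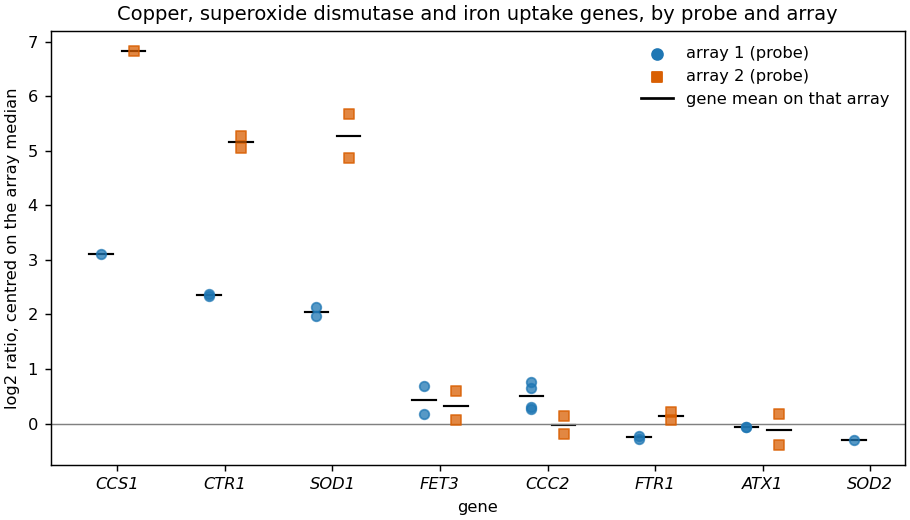
Log2 ratio of query over reference pool (vertical axis, centred on each array's median) for each probe of the 8 genes with a value. Circles are probes on array 1, squares are probes on array 2, and black lines are the gene's mean on that array. *CCS1*, *CTR1* and *SOD1* lie at 1.97 or more on every probe, and the probes of the other genes run from -0.39 to 0.77.

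*CCS1* (YMR038C), the copper chaperone of Sod1, stood at 3.11 on array 1 and 6.83 on array 2, each from its single probe. The mean was 4.97 ± 2.63 (SD, n = 2), a 31.4-fold excess of this mutant in the query pool. It ranked 8th from the top on array 1 and 6th on array 2, when set among the 4048 tested genes. No second probe was present to check this value.

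*SOD1* (YJR104C), the cytosolic copper and zinc superoxide dismutase that Ccs1 serves, stood at 2.05 on array 1 and 5.28 on array 2. Its first probe read 1.97 and 5.68, and its second probe read 2.13 and 4.87. The mean was 3.66 ± 2.28 (SD, n = 2), or 12.7-fold, at rank 63 on array 1 and rank 24 on array 2. Both probes were high on both arrays, and the gap between arrays was far wider than the gap between probes, which was 0.16 on array 1 and 0.80 on array 2.

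*CTR1* (YPR124W), the high-affinity copper transporter of the plasma membrane, stood at 2.36 on array 1 and 5.16 on array 2. Its first probe read 2.34 and 5.27, and its second probe read 2.38 and 5.04. The mean was 3.76 ± 1.97 (SD, n = 2), or 13.5-fold, at rank 36 on array 1 and rank 28 on array 2. Its probes differed by 0.04 and 0.23, less than the median gap of 0.18 (46 genes) on array 1 and 0.39 (195 genes) on array 2 among genes with 2 probes and a ratio of at least 2. By the same measure the probes of *SOD1* were closer than the median on array 1 (0.16) and further apart than the median on array 2 (0.80).

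The excess was larger on array 2 for all 3 genes. The value on array 2 was 2.19 times that on array 1 for *CCS1*, 2.57 times for *SOD1* and 2.18 times for *CTR1*. Among the 259 genes at or above 1 on both arrays this quotient had a median of 1.90 (quartiles 1.42 and 2.32), so *CCS1* and *CTR1* lay inside the quartiles and *SOD1* above them. Most other high genes thus also read higher on array 2, and the SDs of these 3 genes include that difference of scale.

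*ATX1* (YNL259C), the chaperone that feeds copper to the secretory pathway, stood at -0.06 on array 1 and -0.11 on array 2 (mean -0.09 ± 0.03, SD, n = 2). Both of its probes read -0.06 on array 1, while on array 2 they read -0.39 and 0.17. The strain of this second copper chaperone was therefore close to the centre of both arrays, with 58.4 to 59.6% of tested genes above it by either array or by the mean.

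*CCC2* (YDR270W), the Golgi copper ATPase that receives copper from Atx1, stood at 0.50 on array 1, from 4 probes, and at -0.03 on array 2, from 2 probes. The mean was 0.24 ± 0.37 (SD, n = 2). Of all tested genes, 15.1% lay above *CCC2* on array 1 and 51.8% on array 2. The probes without a value on array 2 were the higher ones on array 1, at 0.65 and 0.77, against 0.31 and 0.27 for those measured on both. With only the probes seen on both arrays, the mean was 0.13.

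*FET3* (YMR058W), the copper-dependent ferroxidase, stood at 0.43 on array 1 and 0.33 on array 2 (mean 0.38 ± 0.07, SD, n = 2). Its first probe read 0.18 and 0.59, and its second 0.68 and 0.07, so its probes changed order between the arrays. Of all tested genes, 17.0% lay above *FET3* on array 1 and 32.0% on array 2. *FTR1* (YER145C), the iron permease partnered with Fet3, stood at -0.25 on array 1 and 0.14 on array 2 (mean -0.06 ± 0.27, SD, n = 2). The sign of *FTR1* differed between the arrays, and both of its probes agreed within 0.06 on array 1 and 0.15 on array 2.

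*SOD2* (YHR008C), the mitochondrial manganese superoxide dismutase, had a value from 1 of its 2 probes on array 1, at -0.30, and none on array 2. It lies on the same chromosome arm as *PIH1*, with 23 probed genes between them, and belongs to the region kept out of the tests. Its nearest measured genes were low, *ERG11* at -0.36 and -1.08 and *TDA3* at -1.15 and -2.02 on arrays 1 and 2. On the side away from *PIH1*, *NEM1*, the fifth probed gene from *SOD2*, was high at 1.29 and 3.55, and *QCR10*, the sixth, stood at -0.82 and 0.06. The contributions of linkage and of the *SOD2* allele to its value cannot be told apart. *MAC1* (YMR021C) had a single probe, with no value on either array.

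Ordered by mean, the genes ran *CCS1*, *CTR1*, *SOD1*, *FET3*, *CCC2*, *FTR1* and *ATX1*. *CCS1* exceeded *CTR1* by 0.75 on array 1 and 1.67 on array 2, and *SOD1* by 1.06 and 1.55. *CTR1* and *SOD1* changed places, *CTR1* being higher by 0.31 on array 1 and *SOD1* higher on array 2 (difference -0.12). The step below them was the widest, with *SOD1* above *FET3* by 1.62 and 4.95. The 3 genes above that step were chosen for their height, so nothing is read from its width. The 4 lower genes had no stable order, since each neighbouring pair among them changed sign between the arrays.

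**Figure D2:**
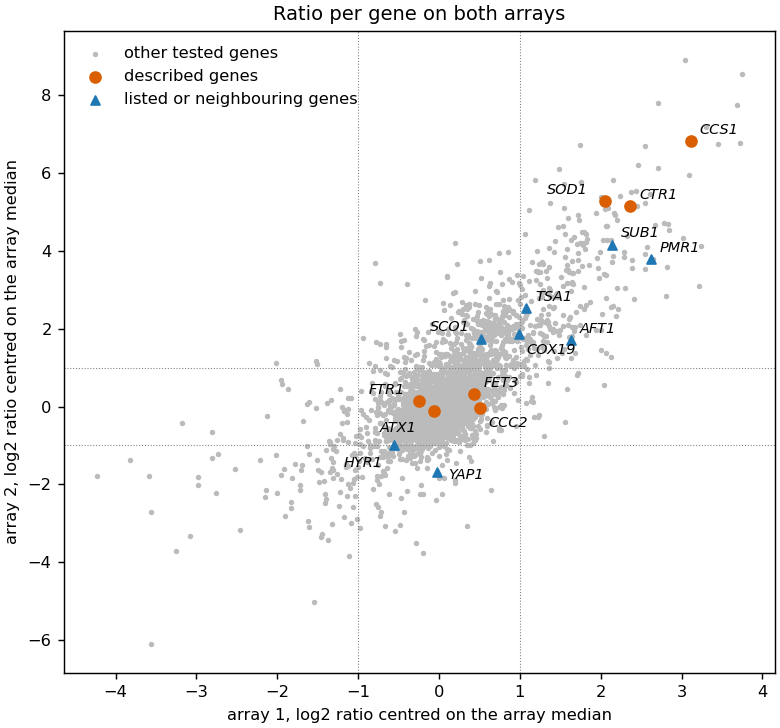
Log2 ratio on array 1 (horizontal axis) against array 2 (vertical axis), both centred on the array median, for the 4048 tested genes. Orange circles are the 7 described genes with both values, blue triangles are named genes of the related lists and *SUB1*, and dotted lines mark -1 and 1. *CCS1*, *CTR1* and *SOD1* lie at the upper right, and *FET3*, *CCC2*, *FTR1* and *ATX1* lie in the central cloud.

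At or above 1 on both arrays stood 3 of the 7 genes measured, against 6.40% of all tested genes (259 of 4048). These 3 are the genes whose height prompted the choice, so nothing is read from that share. Of the 4 others, 0 were at or above 1 and 0 at or below -1 on both arrays, against a background of 2.03% for the lower side. Their values ran from -0.25 to 0.50. In limma's fit over all 4048 genes, Benjamini-Hochberg adjusted p was 0.421 for *FET3*, 0.673 for *CCC2*, 0.851 for *ATX1* and 0.913 for *FTR1*, and 0 of the 4 had an unadjusted p under 0.05. The same fit called 0 genes (0%) at an adjusted p of 0.05, with 678 genes at an unadjusted p under 0.05. An exact sign-flip test of 2 arrays, which was not run, could not give a p below 0.5. The limma fit has no such floor. It estimates the spread from only 2 arrays, so a missed threshold does not show that a ratio is 0.

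The other genes along the chromosome were compared, since a barcode ratio can follow a locus rather than a single gene. Around *SOD1*, 0 of 10 measured genes among the 6 probed on each side reached 1 on both arrays (background 6.40%). *RSM7*, the sixth probed gene after *SOD1*, stood at 0.69 and 2.28. The nearest measured, *URA8* (a CTP synthase gene) and *ECM27*, stood at 0.03 and -0.48, and at 0.36 and -0.46. *ADO1*, the probed gene directly after *SOD1*, had no value on either array. Around *CTR1*, *THI22* stood at -0.10 and -0.50 and *YLH47* at -0.21 and -0.28. The gene directly before *CTR1*, *AXL1*, had a value on array 2 only, at -2.09. Of 9 measured genes around *CTR1*, 1 reached 1 on both arrays (background 6.40%). This was *RPS23B*, the sixth probed gene after *CTR1*, at 1.02 and 2.20. The nearest measured genes of *SOD1* and *CTR1* did not share their high ratios. These windows are too small to set their counts apart from the background share, and a part of the locus was not tested.

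*CCS1* differed in its nearest gene, although again only 1 of 10 measured genes around it reached 1 on both arrays (background 6.40%). The adjacent gene *SUB1*, which encodes a transcriptional coactivator, was high as well, at 2.14 on array 1 and 4.16 on array 2 (mean 3.15 ± 1.43, SD, n = 2, rank 58), also from a single probe. On the other side the stress-response transcription factor gene *MSN2* stood at 0.42 and 2.25. One gene further, *YET2* stood at 0.40 and -1.39 and *MIH1* at 0.10 and -0.64. Whether the neighbouring high values bear on each other was not tested.

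Some genes near 0 had high neighbours. *FTR1* lies next to *LSM5*, of the Lsm RNA-binding rings, at 2.46 and 6.20. The nearest measured gene after *FET3* was *SAM37*, of the mitochondrial outer membrane sorting machinery, at 2.41 and 2.77. *SEN15*, the probed gene directly after *FET3*, had no value on either array. *AAC1* on the other side stood at 0.15 and 0.36. *MSW1*, a mitochondrial tryptophanyl-tRNA synthetase gene before *CCC2*, stood at 0.48 and 2.42, whereas *GLO2* after it stood at 0.09 and -0.31. *ATX1* lay between *ORC5* (0.05 and -0.34) and *DSL1* (-0.16 and -0.04). *UBP5*, before *FTR1*, stood at -1.17 and -0.10. How far any of these ratios follows its locus was not tested.

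**Figure D3:**
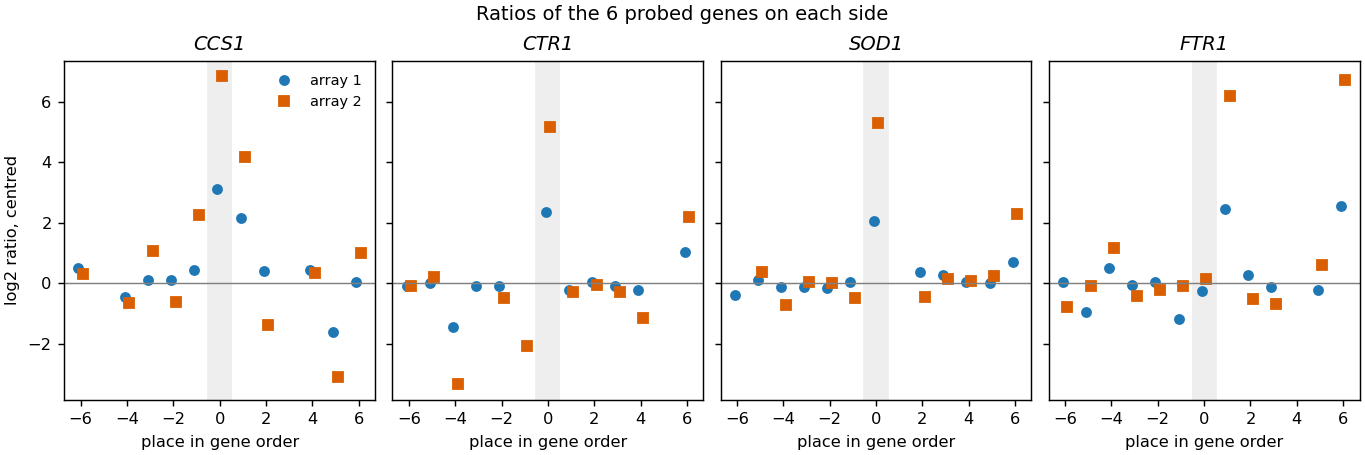
Log2 ratio (vertical axis, centred) of *CCS1*, *CTR1*, *SOD1* and *FTR1* (grey band) and of up to 6 probed genes on each side, placed in gene order. Circles are array 1 and squares are array 2. *SOD1* and *CTR1* stand alone among their measured near neighbours (*ADO1*, directly after *SOD1*, has no value). *SUB1* beside *CCS1* is also high, and *FTR1* near 0 lies next to *LSM5* at 2.46 and 6.20.

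The genes with the most similar pair of values were found by Euclidean distance over the 2 arrays. For *CCS1* these were *RPS4A*, a small ribosomal subunit gene (distance 0.35), *APQ12*, a nuclear envelope gene (0.41), and the deubiquitinase gene *UBP3* (0.57). For *SOD1* they were *BRE2* of the COMPASS histone methyltransferase (0.13), the nuclear pore gene *NSP1* (0.18) and *UTP4* of the small subunit processome (0.21). For *CTR1* they were *SSQ1*, a mitochondrial Hsp70 gene of iron-sulfur cluster assembly (0.07), *SWD3* of COMPASS (0.09) and *HUR1* (0.20). With 2 arrays, such a likeness says only that the ratios had similar sizes.

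Other genes of copper handling were mostly near the centre on array 1. Of 18 listed, 15 were measured, and 0 lay beyond 1 in either direction on both arrays (background 6.40% for the upper and 2.03% for the lower side). Their median was 0.21, against -0.01 over all tested genes. Of the 15, 8 were positive on both arrays, where 34.7% of all tested genes were. On array 2, 6 of the 15 stood at or above 1 (background 17.2%), and on array 1 it was 0 of 15 (background 6.92%). Of these 6, 5 serve the copper site of cytochrome c oxidase, a grouping made after the values were seen. *COX19* stood at 0.99 and 1.86 (mean 1.43 ± 0.62, SD, n = 2), the highest of the list and just under 1 on array 1. *SCO1* stood at 0.51 and 1.74, *COX11* at 0.50 and 1.67, and *COX23* at 0.24 and 1.36. *COX17*, the copper chaperone of the oxidase, stood at 0.37 and 1.42, from 1 of its 2 probes on each array. *SCO2*, the paralog of *SCO1*, stood at -0.09 and 0.16. Of the same list, *CMC1* stood at 0.10 and 0.32 and *PIC2* at 0.02 and 0.03. Values like those of the 5 were not particular to copper genes. Outside the list, *COX14* (0.13 and 1.62), *COQ3* (0.52 and 1.68) and the mitochondrial ribosomal protein gene *MRPL49* (0.43 and 1.79) had them too. *COX8* (0.23 and 0.06) and *MRPL39* (0.24 and -0.16) did not. These are examples picked after the values were seen, and the share of mitochondrial genes with such values was not counted.

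The sixth copper gene at or above 1 on array 2 was *GEF1*, at -0.03 and 1.15. *GEF1* is a Golgi chloride channel gene needed for copper loading of Fet3. *FRE1*, a cell-surface reductase of copper and iron, had the lowest mean of the list, at -0.24 ± 0.22 (SD, n = 2). Its value came from 1 of its 2 probes on each array. *CUP2*, the activator of the metallothionein genes, stood at 0.11 and 0.38. *CTR2* and both *CUP1* copies had no probe.

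Among the other iron genes, 24 of 28 were tested, with a median of -0.08, and 1 reached 1 on both arrays (background 6.40%) while 0 reached -1 (background 2.03%). That gene was *AFT1*, the main activator of the iron regulon, at 1.63 on array 1 and 1.70 on array 2 (mean 1.66 ± 0.05, SD, n = 2). Unlike the high copper genes it had almost equal values on both arrays. *HMX1*, a heme oxygenase gene, was lowest at -0.74 ± 0.18 (SD, n = 2). The siderophore and cell-wall iron genes, *ARN1*, *ARN2*, *SIT1*, *ENB1* and *FIT1* to *FIT3*, had means from -0.42 to 0.12. The low-affinity transporter gene *FET4* stood at 0.23 and 0.14.

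Of the 7 manganese genes 5 were tested (median -0.23), with 1 reaching 1 on both arrays (background 6.40%) and 0 reaching -1 (background 2.03%). *PMR1*, the Golgi calcium and manganese ATPase, stood at 2.62 and 3.80 (mean 3.21 ± 0.83, SD, n = 2), from 1 of its 2 probes on each array. *HUR1*, which overlaps *PMR1* and is named here after its values were seen, stood at 2.54 and 5.23, so both names of that locus were high on both arrays. *CUP2*, on the other side of *PMR1*, did not share this height. *PHO84*, a phosphate transporter gene that also carries manganese, was lowest at -0.30 ± 0.14 (SD, n = 2). *SMF1* (-0.02 and -0.54), a manganese transporter gene, and *BSD2* (-0.08 and -0.38), which controls its turnover, were near 0 on array 1.

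In the list of oxidant defence 26 of 30 genes were tested, with a median of -0.03. Again 1 reached 1 on both arrays (background 6.40%) and 0 reached -1 (background 2.03%). *TSA1*, the major cytosolic peroxiredoxin gene, stood at 1.07 and 2.53 (mean 1.80 ± 1.03, SD, n = 2), from a single probe. *MXR2*, a mitochondrial methionine sulfoxide reductase gene, stood at 0.85 and 1.80. *YAP1*, the transcription factor of the peroxide response, was lowest by mean, with -0.03 on array 1 and -1.68 on array 2. It also had a single probe. *HYR1*, the peroxidase that passes the peroxide signal to Yap1, stood at -0.56 and -0.996. The catalase genes *CTT1* (-0.13 and -0.21) and *CTA1* (0.00 and 0.08) were near 0. Without scaling between arrays, the limma fit called 0 of the 70 tested genes of these 4 lists, as it did over all genes. With the arrays set to an equal median absolute deviation it called 5 of them at the threshold of 0.05, *COX19*, *AFT1*, *PMR1*, *MXR2* and *TSA1*, all higher, where 8.97% of all genes were called higher. With quantile normalization it also called 5, with *SCO1* in place of *AFT1*, against 9.91% of all genes.

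**Figure D4:**
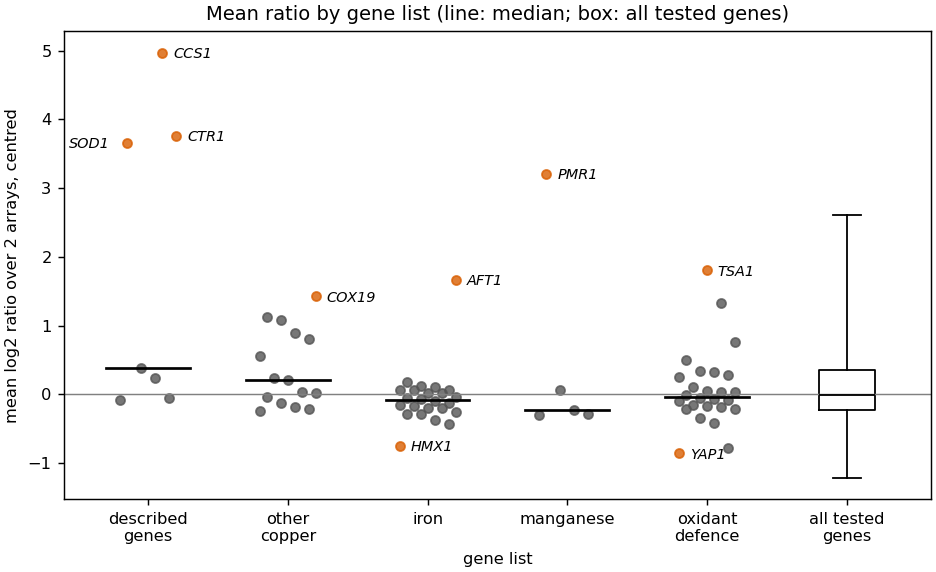
Mean log2 ratio over both arrays (vertical axis, centred) for each tested gene of the described set and of the lists of other copper, iron, manganese and oxidant defence genes. Points are genes, black lines are list medians, and the box shows the quartiles of all 4048 tested genes with whiskers to the central 95%. Among the genes drawn as points, *CCS1*, *CTR1* and *SOD1* are highest, *PMR1* comes next, and most others lie near 0. Genes beyond the whiskers are not drawn. By mean, *CCS1* ranked 8th, *CTR1* 25th and *SOD1* 32nd among the 4048.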

How the data were processed

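Genomic barcodes were hybridised to 2-colour Agilent arrays, per the labels' protocols. The deposited values are 1 log ratio per probe and array, read here as log2. No source used here gives the authors' normalization, centring or filters. The deposited medians were -0.06 on array 1 and -0.27 on array 2. Of 15744 probes, 10998 and 10382 had a value, and 2660 had no gene symbol. A RefSeq gene table (R64 assembly) supplied current symbols and gene order only: 5034 were current, 64 were synonyms of 1 gene and 2 were left out.

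Arrays were centred on their medians and probes averaged per gene. Tests left out the 148 genes lying up to 100 kb from either query gene. The other 4048 were fitted with limma 3.58.1 (R 4.3.3; intercept, eBayes) against 0, with Benjamini-Hochberg adjustment at 0.05, after the fit was tested on simulated data. Depth does not apply; the number of arrays limits the precision. Python 3.11.15 with numpy 2.4.6, pandas 2.3.3 and matplotlib 3.10.9 did the rest. The genes and lists were chosen with earlier results of these data known. Named were the 10 genes, both queries, each list's highest and lowest gene and those beyond 1 on both arrays, the nearest measured neighbours, and the 3 genes most alike for *CCS1*, *SOD1* and *CTR1*. Other genes were named after their values were seen. Alternatives covered scaling, centring, probe summary, variance model and tested genes.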

Additional observations from a re-analysis of the deposited data

How the results depend on the processing

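Scaling between arrays decided how many genes limma called over the whole table: 0 without scaling, 456 once both had an equal median absolute deviation and 491 with quantile normalization. Both scalings shrink the difference between the arrays from which the spread is estimated. The other 5 alternatives left 0 calls, in the 4 related lists too. *ATX1*, *CCC2*, *FET3* and *FTR1* had 0 calls under all 7 alternatives. Under the 5 alternatives run for it, and with either array alone, the count of described genes at or above 1 was 3. At or below -1 it was 0. The 3 genes were chosen for their height on these arrays, so nothing is read from the unchanged count. Over all tested genes, 5.73 to 9.29% were at or above 1 and 1.95 to 2.42% at or below -1 under these alternatives. With array 1 alone the shares were 7.30% and 3.63%, and with array 2 alone 17.3% and 5.35%. Means ran from 3.11 to 6.83 for *CCS1*, 2.36 to 5.16 for *CTR1* and 2.05 to 5.28 for *SOD1* over alternatives and single arrays. Without centring, *ATX1* stood at -0.25 and *FET3* at 0.22, and *FET3* at 0.48 after quantile normalization. Each scaling put 1 of 15 copper genes and 2 of 26 oxidant defence genes at or above 1 on both arrays, against 0 and 1 as centred. The share of all tested genes also rose with both scalings, from 6.40% as centred to 9.29% with quantile normalization. Nothing is read from the rise in these lists. No paired analysis was possible because the study has a single group. Without 1 array no residual degrees of freedom remain, so calls were not counted that way. Signal over background was not analysed here.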

Other observations

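Some related genes had values that entered no test. *POS5*, a mitochondrial NADH kinase gene of oxidant defence, stood at 1.26 on array 1 and 2.30 on array 2, and *AFT2*, the paralog of *AFT1*, at -0.19 and -0.996; both lie near *RSA1*, among the genes left untested. *BOL2* and *FRA1*, whose products restrain Aft1, had a value on array 1 only, at 0.85 and 0.38. *MTM1*, needed to load manganese into Sod2, and *SMF2*, a manganese transporter gene, had probes without a value. The near-equal values of *PIH1* came from different probes: array 1 averages 1.58 and 0.42, whereas array 2 has only the first of these, at 1.02. *RSA1* had 2 probes without a value.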
